A study of Mus musculus with 6 samples.

Results

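Mitochondrially encoded transcripts were examined in RNA-seq libraries of mouse 3T3-L1 cells. They were taken as every entry of the count tables whose Ensembl gene ID carries a mouse symbol that begins with mt-, and 37 of 37315 entries met this rule. They comprise 13 protein-coding genes, 2 rRNA genes and 22 tRNA genes, the full gene content annotated on the mouse mitochondrial chromosome. No measured value entered the choice.

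The cells are 3T3-L1 pre-adipocytes, a mouse embryo fibroblast line that can be induced to store fat. The groups were FTO knockdown (1 library), FTO control (1 library), METTL3 knockdown (2 libraries) and METTL3 control (2 libraries), and every group came from transiently transfected cells of this single line. METTL3 is the catalytic subunit of the enzyme that writes N6-methyladenosine into nuclear mRNA, and FTO is a demethylase of RNA. Polyadenylated RNA was selected and then depleted of rRNA. The METTL3 libraries were read in single-read mode and the FTO libraries in paired-end mode, so each knockdown is compared with the control of its own experiment. The labels state neither what the control cells received nor whether replicates were separate cultures. The p-values therefore measure only the spread between these libraries, which may be technical.

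The mitochondrial genome is a small circular DNA that is transcribed from both strands into long precursors. tRNAs lie between most of the rRNAs and mRNAs, and their excision by nucleases frees the other transcripts. Most of the mRNAs then receive short poly(A) tails, and all of them encode membrane subunits of respiratory complexes I, III and IV or of the ATP synthase, complex V. The rRNAs form the core of the mitochondrial ribosome, and the tRNAs decode its messages.

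Summed counts ran from 28348179 to 44580722 reads per library, and levels are given in CPM, counts scaled to a fixed library size. Where no read was counted, a level below 3 reads cannot be seen, which is 0.0673 to 0.106 CPM depending on the library. The knockdown target was lower in the matching libraries, with Fto at 49.8 CPM in the FTO knockdown and 153 CPM in the FTO control library. Mettl3 had 7.58 and 6.57 CPM in the METTL3 knockdown libraries and 25.1 and 29.2 CPM in the METTL3 controls. All 10 fibroblast and pre-adipocyte markers had reads, with summed levels of 6524 CPM in the FTO knockdown, 9366 CPM in the FTO control and 18046 to 19409 CPM in the METTL3 experiment. The 8 adipocyte markers summed to 15.9 to 46.6 CPM, nearly all of it Fabp4, and 10 markers of epithelial, endothelial and leukocyte cells to 3.57 to 5.18 CPM, with Epcam, Krt18 and Cd3e at 0 in every library. The part of these marker levels in the differences that follow was not tested.

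Mitochondrial transcripts took up 3.90% of the counted reads in the FTO knockdown and 4.14% in the FTO control library. In the METTL3 experiment they took up 0.679% and 0.687% in the knockdown libraries and 0.605% and 0.757% in the controls. The FTO libraries both lay far above the METTL3 libraries, while the METTL3 knockdown values fell between the control values. In bulk RNA, fewer cells rich in a transcript and less of it per cell cannot be told apart.

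The 13 mRNAs supplied nearly all of these reads in every library. Their share was 3.80% in the FTO knockdown, 4.05% in the FTO control, 0.663% and 0.665% in the METTL3 knockdown libraries and 0.592% and 0.735% in the METTL3 controls. The rRNAs, in libraries that had gone through rRNA removal, took 0.0959% in the FTO knockdown and 0.0887% in the FTO control. They took 0.0161% and 0.0222% in the METTL3 knockdown libraries and 0.0129% and 0.0221% in the METTL3 controls. The tRNAs were hardly counted, with 591 reads in the FTO knockdown, 409 in the FTO control, 38 and 39 in the METTL3 knockdown libraries and 26 and 28 in the METTL3 controls.

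**Figure D1:**
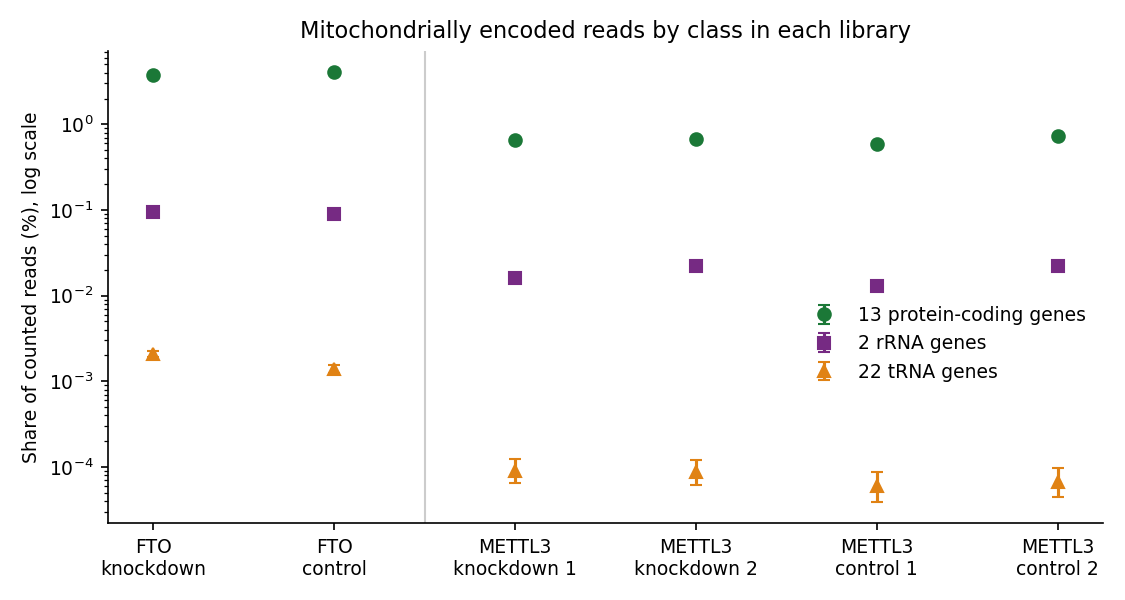
Share of counted reads (percent, log scale) on the 13 protein-coding, 2 rRNA and 22 tRNA genes of the mitochondrial genome in each of the 6 libraries, with 95% exact binomial intervals that cover counting error only. The FTO libraries lie above every METTL3 library for all 3 classes.

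Between METTL3 knockdown and control the mitochondrial share did not differ beyond the spread of the libraries. It averaged 0.683% ± 0.00571 in METTL3 knockdown and 0.681% ± 0.108 in METTL3 control (SD, n = 2 each; two-sided exact permutation p = 1.0, where this design cannot go below 0.3333). Without METTL3 control replicate 1 the difference was -0.0740 percentage points, and with all 4 libraries it was 0.0023 percentage points. The rRNA share gave an exact permutation p of 0.6667 over the same libraries, and the rRNA groups overlapped. The tRNA share was higher in both METTL3 knockdown libraries than in both controls, 0.0000892% ± 0.00000236 against 0.0000636% ± 0.00000489 (SD, n = 2 each), at the smallest exact permutation p possible, 0.3333.

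Levels per length are given as the authors' RPKM, whose implied read total was 1.30 times the summed counts in FTO libraries and 1.08 to 1.09 times in METTL3 libraries. In the FTO libraries the subunits of cytochrome c oxidase, complex IV, led the order. mt-Co3 had 4675 RPKM in the FTO knockdown and 5409 in the FTO control, mt-Co2 had 4549 and 4709, and mt-Co1, the catalytic subunit, had 4227 and 4596. mt-Atp6, the membrane subunit of ATP synthase that carries protons, came next with 3687 RPKM in the FTO knockdown and 3826 in the FTO control. The remaining order was mt-Nd1, mt-Cytb, mt-Nd4, mt-Nd5, mt-Nd2, mt-Nd6, mt-Nd3, mt-Atp8 and mt-Nd4l, and it was the same in both FTO libraries. With 1 library per group, no spread is known for neighbours in that order.

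In the METTL3 libraries mt-Co1 stood alone at the top. It had 1627 and 1672 RPKM in the METTL3 knockdown libraries and 1570 and 2031 in the METTL3 controls. mt-Co2 followed with 971 and 1038 RPKM in METTL3 knockdown and 980 and 1015 in METTL3 control. mt-Co3, first in the FTO libraries, took the fifth place here, with 412 and 495 RPKM in METTL3 knockdown and 370 and 483 in METTL3 control. The METTL3 libraries thus shared mt-Co1 and mt-Co2 among the leading genes with the FTO libraries but not mt-Co3.

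mt-Cytb, the mitochondrially encoded subunit of complex III, had 2650 RPKM in the FTO knockdown and 2874 in the FTO control, against 827 and 826 in METTL3 knockdown and 647 and 841 in METTL3 control. mt-Nd1, a complex I subunit that helps form the quinone-binding site, had 2994 RPKM in the FTO knockdown and 3135 in the FTO control. In the METTL3 experiment it had 665 and 683 RPKM in knockdown and 602 and 729 in control libraries. The ranges of mt-Cytb and mt-Nd1 overlapped across the METTL3 controls, but within every METTL3 library mt-Cytb was the higher of the pair.

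The proton-pumping antiporter-like subunits of complex I, mt-Nd2, mt-Nd4 and mt-Nd5, were less abundant. mt-Nd5 had 1538 RPKM in the FTO knockdown and 1491 in the FTO control, against 370 and 233 in the METTL3 knockdown libraries and 240 and 276 in METTL3 control, and its highest METTL3 value was in the first knockdown library. mt-Nd4 had 1737 RPKM in the FTO knockdown and 1812 in the FTO control, against 127 and 154 in METTL3 knockdown and 117 and 152 in METTL3 control. mt-Nd2 had 1307 RPKM in the FTO knockdown and 1435 in the FTO control, against 63.2 and 73.5 in METTL3 knockdown and 52.4 and 83.4 in METTL3 control. In both METTL3 groups the ranges of neighbours in the order of mt-Atp6, mt-Nd2 and mt-Nd6 overlapped. Within every METTL3 library, however, mt-Atp6 lay above mt-Nd2 and mt-Nd6. The order of mt-Nd2 and mt-Nd6 varied, with mt-Nd2 the higher only in METTL3 control replicate 2. mt-Atp6 had 85.3 and 118 RPKM in METTL3 knockdown and 81.7 and 111 in METTL3 control. mt-Nd6, the one mRNA encoded on the opposite strand from the other 12, had 1275 RPKM in the FTO knockdown and 1325 in the FTO control, against 64.1 and 86.0 in METTL3 knockdown and 56.1 and 76.6 in METTL3 control.

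The shortest mRNAs were at the bottom. mt-Nd3, a small complex I subunit, had 817 RPKM in the FTO knockdown and 557 in the FTO control, against 5.56 and 6.89 in METTL3 knockdown and 5.93 and 6.10 in METTL3 control. mt-Atp8, a small membrane subunit of ATP synthase, had 312 RPKM in the FTO knockdown and 130 in the FTO control, against 1.40 and 3.65 in METTL3 knockdown and 4.59 and 1.41 in METTL3 control. mt-Nd4l, a further complex I subunit, was at 0 reads in 5 libraries and had 1 read in the FTO control library.

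The rRNAs were below most of the mRNAs per length. mt-Rnr1 had 368 RPKM in the FTO knockdown and 343 in the FTO control, against 43.9 and 49.9 in METTL3 knockdown and 33.2 and 43.6 in METTL3 control. mt-Rnr2 had 245 RPKM in the FTO knockdown and 223 in the FTO control, against 66.9 and 99.03 in METTL3 knockdown and 54.8 and 103 in METTL3 control.

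**Figure D2:**
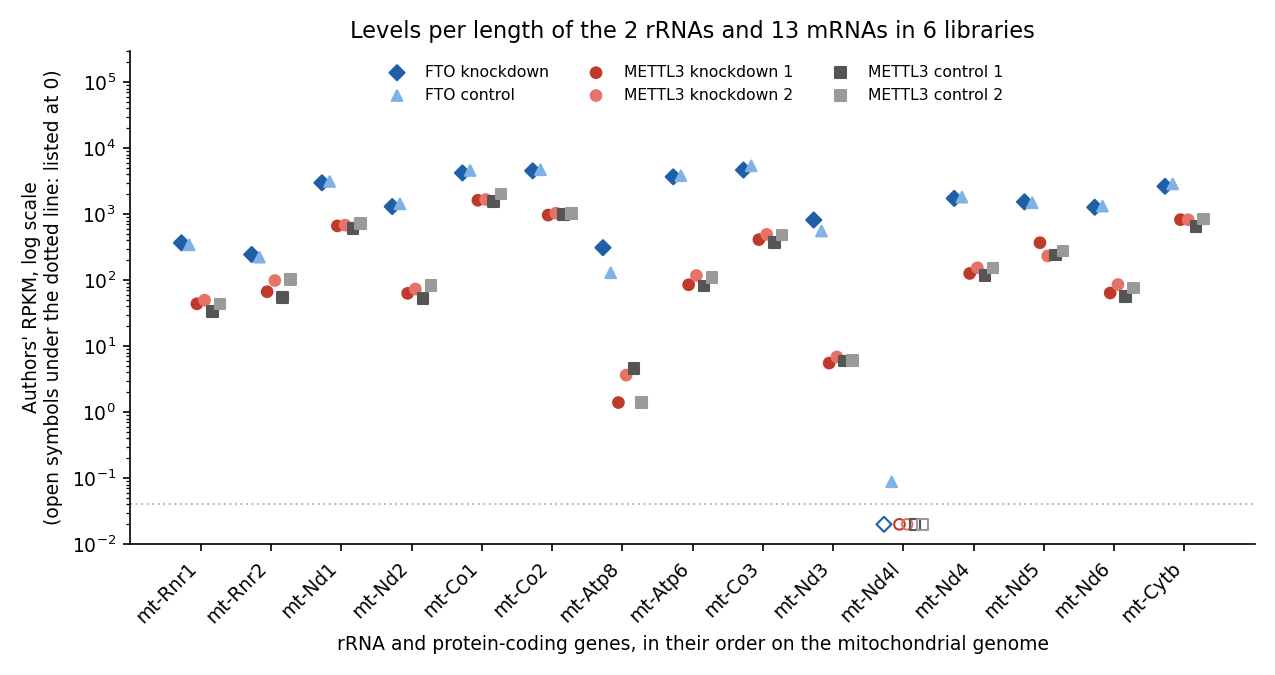
Authors' RPKM (log scale) of the 2 rRNAs and 13 mRNAs in each library, in genome order, with FTO libraries in blue, METTL3 knockdown in red and METTL3 control in grey; open symbols below the dotted line are libraries listed at 0. The gap between the experiments is narrow for mt-Co1 and wide for mt-Atp8 and mt-Nd3, and mt-Nd4l is listed at 0 in 5 libraries.

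As shares of the mitochondrial mRNA reads, mt-Co1 alone made up 22.3% in the FTO knockdown and 22.9% in the FTO control, against 41.3% and 42.2% in METTL3 knockdown and 44.6% and 46.2% in METTL3 control. mt-Cytb made up 10.4% in the FTO knockdown and 10.6% in the FTO control, against 15.5% and 15.4% in METTL3 knockdown and 13.6% and 14.2% in METTL3 control. In these libraries the mt-Co1 share was lower and the mt-Cytb share higher in both METTL3 knockdown libraries than in both controls. For all other mRNAs with METTL3 reads the shares of the groups overlapped. In CPM the groups overlapped for mt-Co1 and mt-Cytb too. Over all genes tested, the CPM levels of the METTL3 groups failed to overlap in 43.0%. For mt-Co3 the share was 12.5% in the FTO knockdown and 13.6% in the FTO control, and 5.31% and 6.34% in METTL3 knockdown and 5.33% and 5.58% in METTL3 control. For mt-Atp6 it was 8.58% in the FTO knockdown, 8.39% in the FTO control and between 0.954% and 1.31% in the METTL3 libraries.

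No mitochondrial transcript passed the test between METTL3 knockdown and control. Of the 37 genes, 15 had enough reads to be tested, namely 12 mRNAs, both rRNAs and the tRNA gene mt-Tp. edgeR's quasi-likelihood test with Benjamini-Hochberg adjustment over 13697 genes called 0 of the 15 at an adjusted p under 0.05, where 0.0146% of all genes tested were called. At an unadjusted p under 0.05, which 11.5% of all genes had, the count among the 15 was also 0, and DESeq2, which called 1.78% of all genes, and limma-voom, which called 0.0146%, each called 0 of the 15. These are genes that passed a read minimum, so the 22 untested genes, 21 tRNAs and mt-Nd4l, are not covered.

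The largest difference of a long transcript was in mt-Rnr1, the RNA of the small ribosomal subunit. It had 46.2 and 51.6 CPM (after TMM scaling, as for the METTL3 values that follow) in METTL3 knockdown and 34.5 and 44.7 CPM in METTL3 control. Both knockdown libraries lay above both controls (log2 fold change 0.31, SE 0.15, edgeR adjusted p = 0.528). mt-Rnr2, the RNA of the large ribosomal subunit, had 117 and 170 CPM in METTL3 knockdown and 94.2 and 174 CPM in METTL3 control, and the groups overlapped with a log2 fold change of 0.09 (SE 0.33).

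mt-Tp had 0.897 and 0.873 CPM in METTL3 knockdown and 0.601 and 0.664 CPM in METTL3 control. Its groups did not overlap either (log2 fold change 0.48, SE 0.28, edgeR adjusted p = 0.570), on 26 to 39 reads per library. mt-Rnr1 and mt-Tp were thus higher in both METTL3 knockdown libraries among the 15 genes tested, and no member was lower in both. Over all genes tested, the groups failed to overlap in 43.0%, counting both directions.

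Among the mRNAs, mt-Cytb had 1044 and 1023 CPM in METTL3 knockdown and 804 and 1033 CPM in METTL3 control. The low value is that of the first control library, and the log2 fold change was 0.17 (SE 0.14, edgeR adjusted p = 0.709). mt-Co1 had 2773 and 2799 CPM in METTL3 knockdown and 2634 and 3366 CPM in METTL3 control (log2 fold change -0.11, SE 0.14, edgeR adjusted p = 0.819). Here the knockdown libraries lay between the control libraries. mt-Nd5 had 745 and 460 CPM in METTL3 knockdown and 475 and 540 CPM in METTL3 control, so the knockdown libraries lay on either side of the controls. The other tested mRNAs had log2 fold changes between -0.23, for mt-Atp8 (SE 0.70), and 0.20, for mt-Nd6 (SE 0.20).

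Over the 15 genes the median log2 fold change was 0.09, beside 0.00 over all genes tested, and 13 of the 15 were positive. Without METTL3 knockdown replicate 2 the median was -0.02, and without METTL3 control replicate 1 it was -0.01. The direction of the group as a whole thus rested on which libraries were kept.

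**Figure D3:**
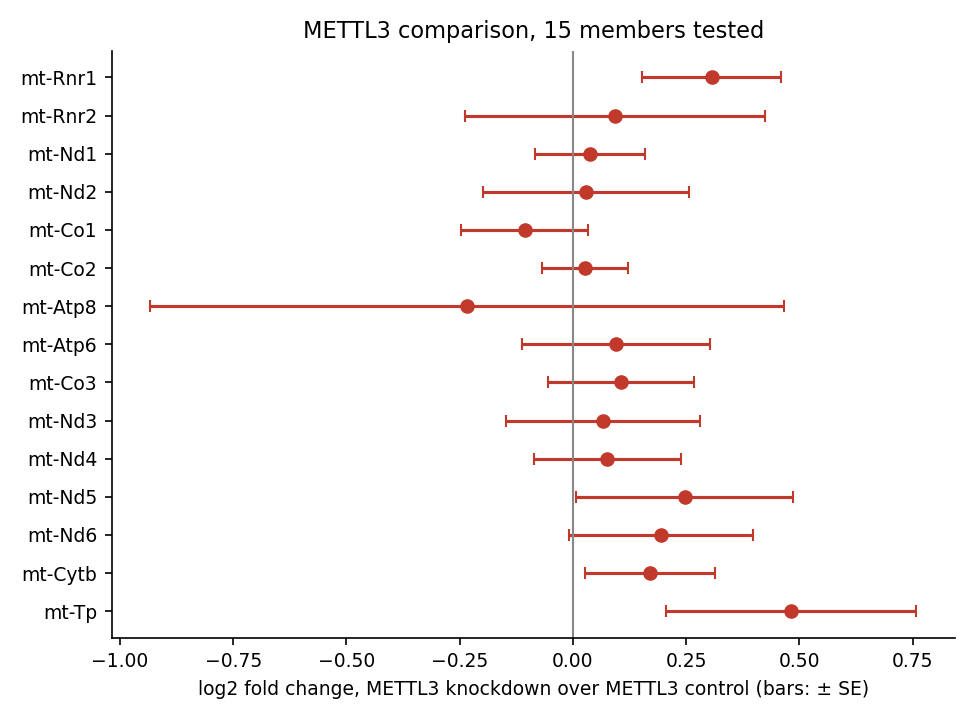
log2 fold change of METTL3 knockdown over METTL3 control (edgeR, 2 libraries each) for the 15 mitochondrial genes tested, with bars of 1 SE. Most points lie within 1 SE of 0, and mt-Atp8, with 13 to 44 reads per library, has the widest bar.

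Between the FTO knockdown and the FTO control library, 9 of the 12 mRNAs compared were slightly lower in the knockdown library, and the shortest transcripts were higher. There was 1 library per group, so these values have no replicate check and no test, and their 95% intervals cover counting error only. Of the 37 genes, 15 had at least 50 reads in either library, and 1 of them, mt-Atp8, differed by more than 1.5-fold. Over the 11432 genes with that many reads, 9.01% were past 1.5-fold, and 4.01% were past it with the FTO knockdown higher.

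mt-Atp8 had 2337 reads in the FTO knockdown and 1011 in the FTO control, or 82.4 against 34.5 CPM, a ratio of 2.39 (2.22 to 2.58). mt-Nd3 had 369 CPM (361 to 376) in the FTO knockdown and 252 CPM (247 to 258) in the FTO control, a ratio of 1.46. mt-Tp had 579 reads in the FTO knockdown and 407 in the FTO control, a ratio of 1.47 (1.29 to 1.67). These 3 are the shortest of the 15 genes, with lengths of 204, 348 and 67 bp, and they were the only ones of the 15 with a ratio above 1.1.

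The 2 rRNAs were close to the control, at ratios of 1.07 for mt-Rnr1 and 1.09 for mt-Rnr2, and mt-Nd5 had a ratio of 1.03. The other 9 mRNAs ran from 0.860 for mt-Co3 to 0.962 for mt-Co2. mt-Co1 had a ratio of 0.915, mt-Cytb 0.918, mt-Nd1 0.951 and mt-Atp6 0.959. The summed mRNA share in the FTO knockdown was 0.938 times that in the FTO control. mt-Atp8 and mt-Atp6 lie on the same strand, and their coding sequences overlap by 43 bases, and their ratios were 2.39 and 0.959.

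The mt-Atp8 sequence is shown for that overlap, since a count assigned within it could fall to either gene. The gene (ENSMUSG00000064356) lies at chrM:7766-7969 (plus strand, GRCm38, the assembly also called mm10, from GENCODE transcripts), and capitals mark the bases shared with mt-Atp6.
mt-Atp8: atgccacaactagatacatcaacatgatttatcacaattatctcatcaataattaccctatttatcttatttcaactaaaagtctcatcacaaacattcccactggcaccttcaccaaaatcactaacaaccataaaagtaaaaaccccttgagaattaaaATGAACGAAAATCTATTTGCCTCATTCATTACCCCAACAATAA

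Other short genes also had ratios mostly above 1 in the FTO knockdown library. Among genes with enough reads and no mitochondrial symbol, the median log2 ratio was 0.27 for the 66 genes under 400 bp, and 33.3% of those were past 1.5-fold higher. It was -0.02 for the 294 genes of 400 to under 800 bp and 0.03 for the 6791 genes of 3200 bp or more. The 3 mitochondrial genes under 400 bp had a median log2 ratio of 0.54. Across the 15 mitochondrial genes the log2 ratio and log2 length had a Pearson r of -0.69 and a Spearman rho of -0.43, a description over genes that share the same 2 libraries. Whether length accounts for the higher values of mt-Atp8, mt-Nd3 and mt-Tp was not tested.

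**Figure D4:**
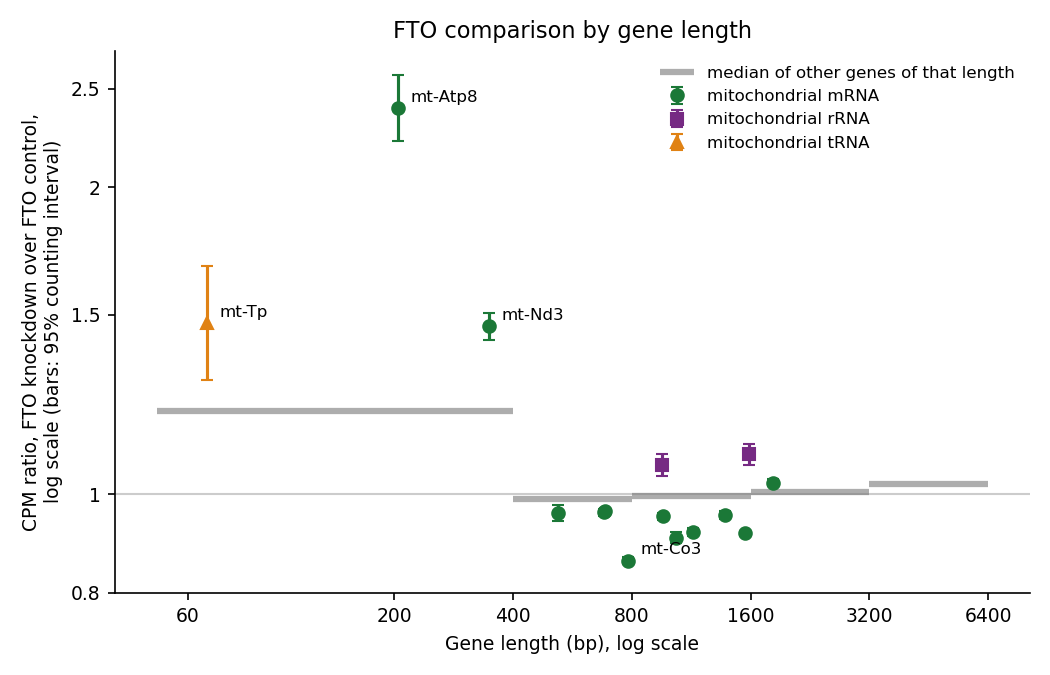
CPM ratio of the FTO knockdown over the FTO control library (log scale) against gene length (bp, log scale) for the 15 mitochondrial genes that reached 50 reads in a library, with 95% counting intervals; grey lines are medians of other genes in each length range. mt-Atp8, mt-Tp and mt-Nd3 lie above the rest, and the grey line is highest for genes under 400 bp.

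The difference between the experiments was larger than either knockdown difference. The mitochondrial share averaged 4.02% over the FTO libraries and 0.682% over the METTL3 libraries, 5.89 times as much, with no overlap (2 against 4 libraries, two-sided exact permutation p = 0.0667, the smallest this design allows). In edgeR's fit over all 6 libraries, all 15 genes tested were higher in the FTO experiment, at adjusted p-values up to 0.0024. The background is high, since 68.0% of all genes tested were called, 34.4% in this direction. For all 15 genes both FTO libraries lay above all METTL3 libraries, beside 38.0% of all genes tested (74.9% counting both directions). The spread in that fit comes from the METTL3 replicates alone, and experiment and sequencing mode cannot be told apart.

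The size of the difference varied widely among the mitochondrial genes. mt-Nd3 was 133 times as high in the FTO experiment (log2 fold change 7.05, SE 0.11), mt-Atp8 87.1 times (6.44, SE 0.40) and mt-Atp6 45.8 times (5.52, SE 0.18). At the other end mt-Co1 was 3.08 times as high (1.62, SE 0.12), mt-Rnr2 3.49 times (1.80, SE 0.27) and mt-Cytb 4.25 times (2.09, SE 0.12). Between them lay mt-Nd2 (24.3-fold), mt-Tp (22.6-fold), mt-Nd6 (22.2-fold), mt-Nd4 (15.5-fold), mt-Co3 (13.8-fold), mt-Rnr1 (10.1-fold), mt-Nd5 (6.54-fold), mt-Co2 (5.58-fold) and mt-Nd1 (5.52-fold). Subunits of one complex differed among themselves, from 5.52-fold to 133-fold for complex I and from 3.08-fold to 13.8-fold for complex IV. The median log2 fold change was 3.79 over the 15 genes and -0.01 over all genes tested.

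The rRNAs also differed from each other. Per length, mt-Rnr2 was 0.665 times mt-Rnr1 in the FTO knockdown and 0.650 times in the FTO control. In the METTL3 experiment it was 1.52 and 1.98 times mt-Rnr1 in the knockdown libraries and 1.65 and 2.35 times in the controls. The FTO libraries thus held more mt-Rnr1 than mt-Rnr2 per length, and every METTL3 library the reverse (2 against 4 libraries, exact permutation p = 0.0667, the smallest this design allows). rRNA reads per 100 mitochondrial mRNA reads were 2.53 in the FTO knockdown and 2.19 in the FTO control. They were 2.43 and 3.34 in METTL3 knockdown and 2.18 and 3.01 in METTL3 control, so the experiments overlapped in this measure.

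Among the shorter genes, gene length moved with the difference between the experiments. Genes with no mitochondrial symbol had a median log2 fold change of 1.68 under 400 bp (396 genes), 0.54 from 400 to under 800 bp (816 genes) and -0.22 from 800 to under 1600 bp (1901 genes). Their median was -0.25 from 1600 to under 3200 bp (4355 genes) and 0.11 at 3200 bp or more (7995 genes), so it rose again. The mitochondrial genes had medians of 6.44 under 400 bp (3 genes), 4.13 from 400 to under 800 bp (4 genes) and 2.46 from 800 to under 1600 bp (7 genes). mt-Nd5, the longest of the 15, had 2.71. Over the 15 genes the log2 fold change and log2 length had a Pearson r of -0.62 and a Spearman rho of -0.72, again over genes that share their libraries. The part of length in the result was not tested.

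**Figure D5:**
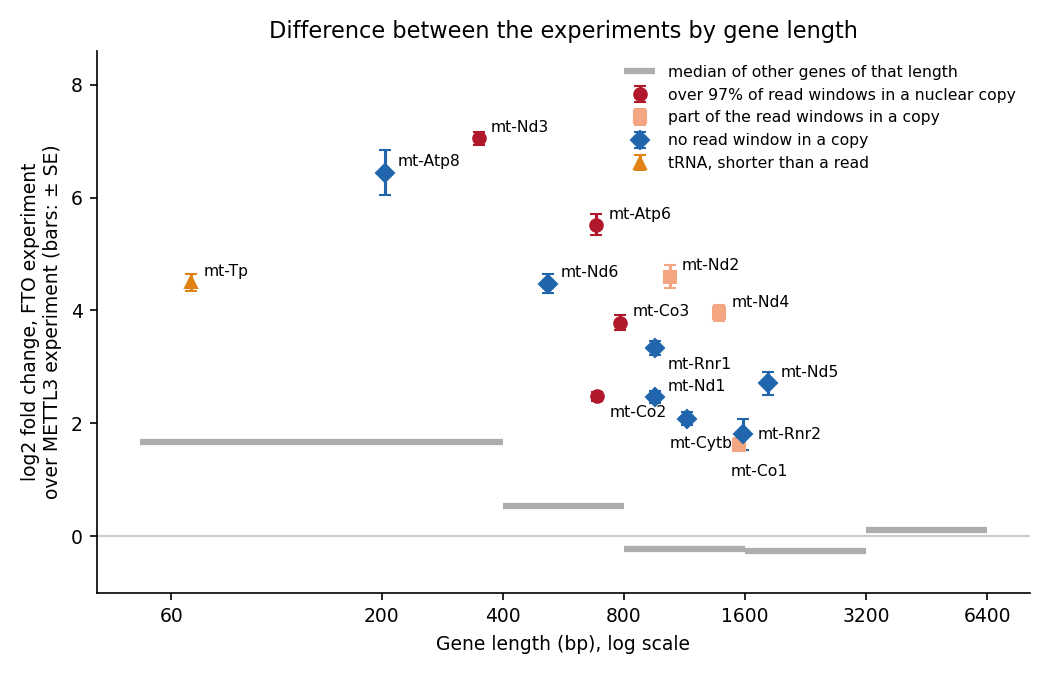
log2 fold change of the FTO experiment over the METTL3 experiment (edgeR, bars of 1 SE) against gene length (bp, log scale) for the 15 mitochondrial genes tested, by how many of their 101-base windows also occur in an annotated nuclear transcript. All 15 points lie above the grey medians of other genes of like length, and mt-Nd3 and mt-Atp8 are highest.

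Nuclear copies of mitochondrial DNA can share reads with the mitochondrial genes. Annotated nuclear transcripts with at least 95% identity over at least 100 bp were found as a block of 7 copies on chromosome 1, positions 24611535 to 24616197, and as further copies on chromosomes 2 and 13. Of the 7 copies, 5 matched their mitochondrial gene without a mismatch. Only 1 of the 7, the copy of mt-Nd4l, was among the entries with deposited counts, and the other 6 were not. As the share of 101-base windows that occur unchanged in a nuclear transcript, mt-Co3 had 99.9%, mt-Co2 and mt-Atp6 99.5%, mt-Nd4l 98.5% and mt-Nd3 97.6%. mt-Nd4 had 60.7%, mt-Co1 30.7% and mt-Nd2 3.09%, and 7 of the 15 mRNA and rRNA genes had none. Counts of the genes with copies are uncertain, because the rule for reads with several matches is not given in the sources used here.

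The 4 tested mRNAs with over 97% of windows in a copy had a median log2 fold change between the experiments of 4.65, ranging from 2.48 for mt-Co2 to 7.05 for mt-Nd3. The 5 mRNAs with no window in a copy had a median of 2.71, ranging from 2.09 for mt-Cytb to 6.44 for mt-Atp8. The ranges overlap, and mt-Atp8, with no annotated copy found, had the second largest difference of the 15. Whether it has an unannotated copy is not known. It lies between mt-Co2 and mt-Atp6, which both have copies in the chromosome 1 block, and sequence between annotated copies was not searched. How copies bear on the difference was not tested.

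mt-Nd4l is the extreme case, with 1 read in all 6 libraries. Its neighbour mt-Nd4, which overlaps its last bases by 7 bp, had 7609 to 95414 reads per library. All but the last 3 bases of mt-Nd4l occur without a mismatch in Gm10222, a nuclear pseudogene on the minus strand of chromosome 1 (24612407 to 24612700). Gm10222 had 95 reads in the FTO knockdown and 55 in the FTO control, 0 and 0 in METTL3 knockdown and 1 and 0 in METTL3 control. In each library both entries were far below mt-Nd4. The sequence is shown because it is what the entries share; it lies at chrM:9877-10173 (plus strand, GRCm38, from GENCODE transcripts), and capitals mark the bases outside the copy.
mt-Nd4l: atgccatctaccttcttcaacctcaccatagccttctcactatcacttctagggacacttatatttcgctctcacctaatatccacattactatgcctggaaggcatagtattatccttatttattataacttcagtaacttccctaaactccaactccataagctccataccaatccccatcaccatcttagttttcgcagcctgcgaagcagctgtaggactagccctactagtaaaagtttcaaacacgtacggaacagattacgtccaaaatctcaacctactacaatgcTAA

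Of the 22 tRNA genes, 19 had 0 reads in every library. They are 59 to 75 bp long, shorter than the 101-bp reads. mt-Tp, the proline tRNA gene, had 579 reads in the FTO knockdown, 407 in the FTO control, 37 and 39 in METTL3 knockdown and 26 and 28 in METTL3 control. mt-Tc, the cysteine tRNA gene, had 11 reads in the FTO knockdown, 2 in the FTO control, 1 and 0 in METTL3 knockdown and 0 and 0 in METTL3 control. mt-Tn, the asparagine tRNA gene, had 1 read in the FTO knockdown and 0 in the other 5 libraries. The FTO libraries were far above every METTL3 library for mt-Tp, while the reads on mt-Tc and mt-Tn are too few to order the libraries.

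The 3 tRNA genes with reads had more room free of other genes than most. The span between the nearest annotated mitochondrial genes on either side is 105 bp for mt-Tn and 100 bp for mt-Tc, and mt-Tp borders the stretch of the circle that holds no annotated gene. mt-Tf, the phenylalanine tRNA gene, borders the other end of that stretch and had 0 reads. For the other 18 tRNA genes without reads the span is 58 to 75 bp. The 3 with reads are thus among the 4 tRNA genes with a span of at least 100 bp. The rule by which reads over several genes were counted is not given in the sources used here, and its part in the pattern was not tested. Reads on mt-Tp, encoded on the minus strand, could also come from the opposite strand, since use of strand is not stated.

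The sequences of mt-Tp and mt-Tc are shown because these tRNA genes hold nearly all tRNA reads. They lie at chrM:15356-15422 and chrM:5192-5257 (both minus strand, GRCm38, from GENCODE transcripts) and are printed 5′ to 3′ on their own strand, in lower case throughout since no part is singled out.
mt-Tp: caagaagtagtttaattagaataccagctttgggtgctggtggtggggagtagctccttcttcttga
mt-Tc: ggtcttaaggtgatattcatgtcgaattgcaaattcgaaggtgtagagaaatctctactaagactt

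Nuclear genes that make, process or work with these transcripts were compared in lists. In the METTL3 comparison edgeR called 0 genes in each of the 5 lists at an adjusted p under 0.05. Of 17 genes of mitochondrial transcription and mtDNA maintenance, 10 had an estimate above 0, and the median log2 fold change was 0.03. The 3 with the smallest p were Tfb1m, an rRNA methyltransferase (-0.46, SE 0.19), Top1mt, the mitochondrial topoisomerase (0.46, SE 0.19), and Mgme1, a mitochondrial exonuclease (0.32, SE 0.15). None of the 17 had an unadjusted p under 0.05, and DESeq2 and limma-voom called 0.

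Of 21 genes of mitochondrial RNA cleavage, stability and decay, 11 were positive, with a median of 0.06. Lrpprc, which stabilises mitochondrial mRNAs, had 82.8 and 79.2 CPM in METTL3 knockdown and 68.0 and 61.4 CPM in METTL3 control (after TMM scaling), a log2 fold change of 0.32 (SE 0.10, edgeR adjusted p = 0.372). Fastkd2, a mitochondrial RNA-binding protein needed for mt-Rnr2, had 0.48 (SE 0.16), and Grsf1, an RNA granule protein, -0.27 (SE 0.10). Unadjusted p was under 0.05 for 4 of the 21, beside 11.5% of all genes tested, and DESeq2 and limma-voom called 0. Of 23 genes of mitochondrial rRNA and tRNA modification, 14 were positive with a median of 0.09, and 2 of the 23 had an unadjusted p under 0.05. Here DESeq2 and limma-voom also called 0. Gtpbp3 and Mto1, which act together on the wobble base of tRNAs, had 0.46 (SE 0.15) and -0.34 (SE 0.13), and Pus1, a pseudouridine synthase, 0.19 (SE 0.10).

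The nuclear-encoded partners of the mitochondrial subunits mostly had estimates below 0 in METTL3 knockdown, and none was called in edgeR with the filter and unpaired design used throughout. Of 36 nuclear complex I genes, 35 had a negative log2 fold change, with a median of -0.16, beside 0.00 over all genes tested. Ndufs4 had -0.42 (SE 0.10), Ndufs5 -0.45 (SE 0.11) and Ndufs3 -0.35 (SE 0.09), with adjusted p-values of 0.296 to 0.317 in edgeR. Of 34 nuclear genes of complexes III, IV and V, 31 were negative, with a median of -0.18. Cox7a2 of complex IV had -0.45 (SE 0.10) and Atp5g3 of complex V -0.43 (SE 0.11).

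Uqcr10, a small subunit of complex III, went the other way, with 34.3 and 37.1 CPM in METTL3 knockdown and 15.7 and 12.2 CPM in METTL3 control (unscaled CPM). edgeR gave it 1.37 on the log2 scale (SE 0.16, adjusted p = 0.172), and it was the one gene of these 5 lists that DESeq2 called, at an adjusted p of 1.2e-08. Without the low-count filter edgeR also called it (adjusted p = 0.00357), and no other gene of the 5 lists. Unadjusted p was under 0.05 for 6 of the 36 and 12 of the 34, beside 11.5% of all genes tested, and limma-voom called 0 in both lists. The 12 mitochondrial mRNAs tested alongside these partners had log2 fold changes of -0.23 to 0.25.

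In the FTO comparison 1 gene of the 5 lists was past 1.5-fold, beside the 9.01% of all genes. It was Trmt10c, a subunit of the nuclease that cuts mitochondrial tRNA precursors at their 5′ end, with 34.4 CPM in the FTO knockdown and 21.4 CPM in the FTO control. The median log2 ratio was 0.22 over the 21 genes of RNA cleavage, stability and decay, with 17 positive, and 0.15 over 22 genes of rRNA and tRNA modification, with 14 positive. It was -0.07 over the 36 nuclear complex I genes, with 10 positive, beside 0.02 over all genes. Over the 34 genes of complexes III, IV and V the median was -0.0028, with 17 positive. For 16 genes of mitochondrial transcription and mtDNA maintenance it was 0.06, with 11 positive. Between the experiments, where 34.4% of all genes were called higher and 33.6% lower, edgeR called 9 of the 36 complex I genes higher and 21 lower. Of the 34 genes of complexes III, IV and V it called 12 higher and 12 lower, so the nuclear partners did not share the uniform direction of the 15 mitochondrial genes.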

How the data were processed

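Poly(A)-selected, rRNA-depleted RNA of 3T3-L1 cells was read with 101-bp reads, per the labels' protocols. Per the file headers, each deposited table lists Ensembl genes of 1 library with their read counts and RPKM values. The deposited counts are whole numbers that were not normalised, and the RPKM values were made by the authors from counts, gene length and a read total. That total, as implied by the values, was 1.08 to 1.09 times the summed counts in METTL3 libraries and 1.30 times in FTO libraries, so RPKM is not on the same scale in both experiments. The submitters' processing notes name TopHat2 2.0.9, bedtools and mm10. Neither the counting rule, the use of strand nor the treatment of multiply matched reads was given in the sources used here.

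Symbols and transcripts came from GENCODE mouse release 21 (GRCm38), which matched 35449 of 37315 entries. Nuclear copies were sought with BLAST 2.17.0 among annotated transcripts alone. METTL3 groups were compared with edgeR 4.0.16 (R 4.3.3; TMM, filterByExpr, robust quasi-likelihood, two-sided), with DESeq2 1.42.0 and limma 3.58.1 as alternatives. The fit between experiments used all 6 libraries in 4 groups. FTO libraries were compared as CPM ratios, with a pseudocount of 1 CPM on the log2 scale. Shares were compared by exact permutation over libraries. The fits were tested on simulated data. All 37 members are accounted for, values in every library are given for the mRNAs, rRNAs and the tRNAs with reads, and list genes are named by smallest p or by a ratio past 1.5-fold. The members were set by symbol alone, and the lists were chosen with earlier results of these data known.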

Additional observations from a re-analysis of the deposited data

How the results depend on the processing

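All 15 mitochondrial genes tested were called higher in the FTO experiment under every scaling, filter and tool tried and without any 1 library (16 with no low-count filter), and the share difference stayed within 3.31 to 3.36 percentage points when METTL3 libraries were left out. Over all genes that fit called 7203 with controls only and 8139 to 10066 without 1 library.

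In the METTL3 comparison, scaling, filters, DESeq2 and limma-voom called 0 mitochondrial genes, as did leaving out each library (0 to 0). Over all genes, where edgeR called 2, the count was 111 with no low-count filter, 239 with DESeq2 and 2 to 70 without 1 library (70 without METTL3 knockdown replicate 1, 7 when replicate 2 of that group was left out). A fit with the replicate number as block called 3706 genes in edgeR (27.1% of those tested), among them 3 mitochondrial genes, mt-Rnr1 (0.31, adjusted p = 0.000588), mt-Nd6 (0.20, adjusted p = 0.0444) and mt-Cytb (0.18, adjusted p = 0.0474). Among the nuclear lists that fit called 4 of 17 genes of transcription, 5 of 21 of RNA cleavage and decay, 6 of 23 of rRNA and tRNA modification, 12 of 36 of complex I (0 higher, 12 lower) and 21 of 34 of complexes III to V (1 higher, 20 lower), where 12.3% of all genes were called lower. Deviations of same-numbered libraries correlated at 0.587 over 13697 genes and at -0.503 over the 15 mitochondrial genes tested. The latter value includes mt-Atp8, with 13 and 36 reads in METTL3 knockdown replicates 1 and 2 and 44 and 13 in the controls. mt-Nd5, mt-Cytb and mt-Tp also moved in opposite directions in the METTL3 groups. The rest of the 15 were lower in replicate 1 than in replicate 2 of both groups. The part of mt-Atp8 in the correlation was not tested. The labels state no pairing, so the libraries share only a number. Within numbers the share differences were 0.0745 and -0.0700 percentage points, with a mean of 0.0023 under the block.

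Without 1 library the METTL3 share difference ran from -0.0740 to 0.0786 percentage points and was -0.0018 without METTL3 knockdown replicate 2. The log2 fold changes of 13 genes changed sign, with ranges of -0.28 to 0.60 for mt-Rnr2, -0.0872 to 0.17 for mt-Nd1, -0.26 to 0.39 for mt-Nd2, -0.27 to 0.0768 for mt-Co1, -0.0129 to 0.0617 for mt-Co2, -1.08 to 0.86 for mt-Atp8, -0.15 to 0.32 for mt-Atp6, -0.0668 to 0.30 for mt-Co3, -0.0879 to 0.20 for mt-Nd3, -0.0935 to 0.26 for mt-Nd4, -0.14 to 0.55 for mt-Nd5, -0.0217 to 0.42 for mt-Nd6 and -0.0006 to 0.36 for mt-Cytb. mt-Rnr1 (0.13 to 0.50) and mt-Tp (0.41 to 0.55) kept their sign.

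In the FTO comparison the share difference of -0.243 percentage points was -0.264 over nuclear reads and -0.307 over TMM-scaled sizes. With at least 1 read, 4 of 18 mitochondrial genes were past 1.5-fold, beside 7639 of 21390 genes (35.7%). Past a ratio of 5 to 4 in either direction were 3 of 15, beside 3305 of 11432 genes (28.9%). Over all genes 1030 of 11432 were past 1.5-fold, 657 of 9738 (6.75%) with at least 200 reads, and 240 of 11432 (2.1%) past 2-fold. Depth limits mt-Atp8 and mt-Tp in the METTL3 libraries, with under 50 reads each. mt-Nd4l and 21 tRNA genes had at most 11 reads in any library, and the part of depth in this was not tested.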
